A study of Mus musculus with 8 samples.

Results

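The 10 dual-specificity MAP kinase phosphatases (MKPs) are the enzymes encoded by Dusp1, Dusp2, Dusp4, Dusp5, Dusp6, Dusp7, Dusp8, Dusp9, Dusp10 and Dusp16. They were taken by gene symbol from the 23337 symbols in the deposited values, and all 10 were present. The cells were a murine oviductal epithelial (MOE) line of FVB background. The oviduct is the counterpart in mice of the human fallopian tube. Before RNA isolation, all cells had spent 6 h in EGF-free MOE medium, in 4 libraries on 2D collagen and in 4 on 3D collagen gels. The comparison asks how the form of the collagen bears on transcript levels, in a study of ovarian colonization by cancer that arises in the fallopian tube. No label ties the replicates to separate cultures. The p-values therefore rest on library-to-library spread, part or all of which could be technical. In bulk RNA, fewer cells that express a gene and less mRNA per cell cannot be told apart. The line is a single cell line, and the labels do not describe how the gels were made.

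MAP kinases are switched on when a MAP kinase kinase phosphorylates a threonine and a tyrosine in their activation loop. MKPs remove both phosphates and so switch the kinases off, with an N-terminal domain that docks the kinase and a C-terminal catalytic domain. DUSP1, DUSP2, DUSP4 and DUSP5 are nuclear enzymes made from genes that respond quickly to growth factors and stress. DUSP6, DUSP7 and DUSP9 are cytoplasmic and prefer ERK, while DUSP8, DUSP10 and DUSP16 prefer the stress-activated kinases JNK and p38. Many MKP genes are themselves transcribed in response to MAP kinase signalling, which makes them feedback inhibitors.

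The recovered depth was 15692699 to 25862036 reads per library, with 14064 to 14598 genes detected. The 10 genes had 38 to 2141 reads in a library, so that counting error weighs most on Dusp10. The keratins Krt8, Krt18, Krt19 and Krt7 and the oviductal factor Pax8 were abundant in every library. The epithelial markers Epcam and Cldn3 reached at most 1.26 and 0.303 CPM (reads scaled to a common library total), Cdh1 5.24, and the oviductal glycoprotein Ovgp1 1.37. The oviductal marker Foxj1 had 52.5 to 77.9 CPM on 2D collagen and 8.08, 19.8, 24.8 and 61.0 in 3D replicates 1 to 4. No oviductal marker passed the test below. Fibroblast and stromal markers summed to 3.00 to 19.3 CPM on 2D and 4.02 to 16.7 on 3D collagen (7 of 7 detected, none at 0 throughout). Of these Pdgfra passed the test below as higher on 3D, at 0.116 to 0.382 CPM on 2D and 0.838 to 0.978 on 3D collagen. It met the filter on low values through the 3D libraries alone, so the filter fixed the direction of its call. The epithelial marker Krt8 passed the test as lower. The part of these markers in the results was not tested.

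Cells on 3D collagen had more mRNA for the nuclear phosphatase Dusp4 and for the cytoplasmic ERK phosphatase Dusp7. Of the 10 genes, 5 had log2 fold changes above 0 (Dusp4, Dusp6, Dusp7, Dusp10 and Dusp16) and 5 below 0 (Dusp1, Dusp2, Dusp5, Dusp8 and Dusp9). The median over the 10 was 0.23, and over all genes it was 0.02. All 10 passed the filter on low values, and 2 passed the test, both higher on 3D collagen (limma, Benjamini-Hochberg adjusted p under 0.05 over 11820 genes). By the same rule 2.33% of all tested genes were higher and 3.39% were lower. At an unadjusted p under 0.05 there were 5 members higher and 1 lower, and 24.2% of all genes passed that level. With library size as the only scaling, 498 genes were higher and 318 lower, in place of 275 and 401, and the median of all genes moved by 0.17 (log2).

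**Figure D1:**
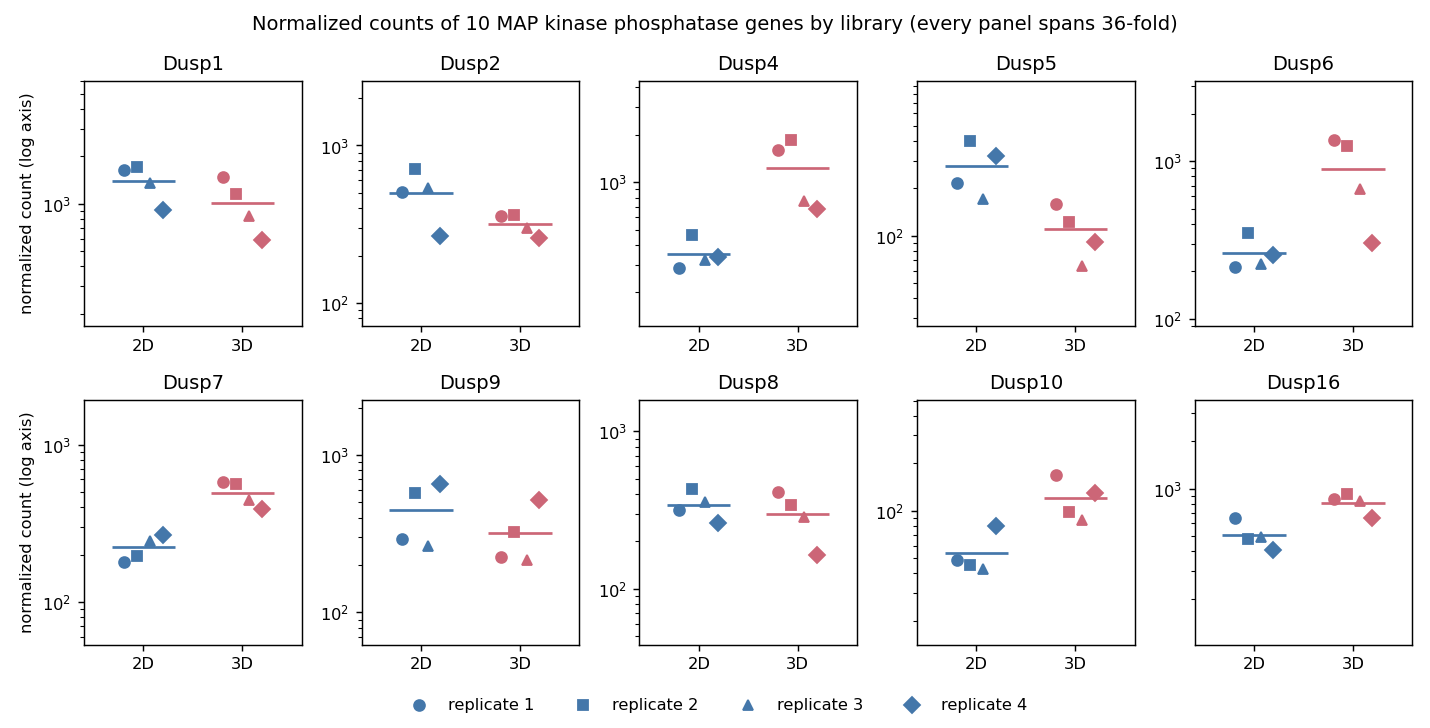
Normalized counts (log axis) of the 10 genes in each of the 8 libraries, by substrate, with symbols for the replicate number and a line at the group mean. The 3D values of Dusp4, Dusp7 and Dusp10 lie above every 2D value and those of Dusp5 below, and in the other 6 panels the groups overlap.

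The groups did not overlap for 3 members that were higher on 3D collagen (Dusp4, Dusp7 and Dusp10), where 8.05% of all tested genes were separated in that direction. They did not overlap for 1 that was lower (Dusp5), where 10.4% of genes were. The call of a gene depended on the test. On the recovered reads edgeR called Dusp4, Dusp6 and Dusp7 higher and no member lower, at shares of 2.61% and 3.12% of all genes. DESeq2 called Dusp4, Dusp6, Dusp7, Dusp10 and Dusp16 higher and Dusp5 lower, at shares of 5.99% and 7.37%. A limma fit with the replicate number as a block called the same members, where 663 of 11820 genes were higher and 742 lower. No label pairs the numbers. Without any one of 3D replicates 1, 2 and 3, limma called none of the 10, and without 2D replicate 3 it called Dusp7 alone. In these same fits the higher calls over all genes went down from 275 to 58, 44, 44 and 180. Without 2D replicates 1, 2 and 4 and 3D replicate 4 they were 221, 267, 158 and 187. The members called higher there numbered 2, 2, 2 and 3.

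**Figure D2:**
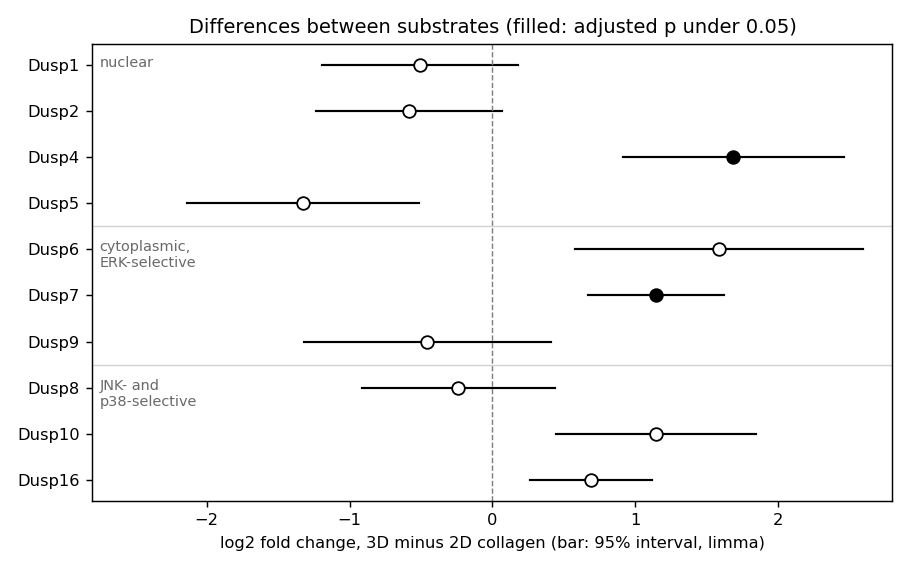
Log2 fold change (3D minus 2D collagen, limma) of each gene with its 95% interval, 4 libraries per group, ordered by class of enzyme. Filled points passed an adjusted p of 0.05. Each class holds values on both sides of 0.

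Dusp4, on chromosome 8 (34807297 to 34819894, mm10), encodes a nuclear phosphatase that acts on ERK, JNK and p38. Its normalized counts were 287, 465, 320 and 333 in 2D replicates 1 to 4, and 1610, 1869, 757 and 677 in 3D replicates 1 to 4. Every 3D value exceeded every 2D value, and 3D replicates 1 and 2 stood well above 3D replicates 3 and 4. Dusp4 rose 3.22-fold, or by 1.69 on the log2 scale (SE 0.34), with a limma adjusted p of 0.0258. Its 95% interval ran from 0.91 to 2.46. It was the largest of the 10 changes with all libraries, but without 3D replicate 4 that of Dusp6 was larger (2.03 against 1.93). The adjusted p was 0.0549, 0.0610 and 0.0561 without 2D replicates 1, 3 and 4, and 0.0786, 0.0719 and 0.0528 without 3D replicates 1, 2 and 3. Over all single libraries left out the log2 fold change stayed between 1.44 and 1.93.

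Dusp5 (chromosome 19, 53529109 to 53542431) encodes a nuclear phosphatase that acts on ERK alone and also anchors it in the nucleus. Its promoter is shown because, of the 8 members with a promoter sequence, it is the only one with CArG boxes, the sites that bind SRF (serum response factor). The sequence covers the 250 bases before the transcription start (chr19:53528895-53529144, plus strand, GRCm38.p6, RefSeq). Its end lies inside the gene span given above, as the start is that of RefSeq and the span that of GENCODE. Capitals mark 2 adjoining CArG boxes, 82 to 63 bases before the start, and the reverse complement of a TGACG half-site.
Dusp5: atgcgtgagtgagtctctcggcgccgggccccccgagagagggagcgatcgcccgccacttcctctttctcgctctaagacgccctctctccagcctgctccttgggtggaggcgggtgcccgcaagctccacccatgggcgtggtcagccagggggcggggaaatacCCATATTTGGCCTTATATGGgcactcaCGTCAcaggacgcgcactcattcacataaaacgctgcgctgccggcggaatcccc
Both strands of the 250 bases were searched, and 1.47% of 32851 promoters held a CArG box. A match is a run of letters, and binding was not measured.

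Dusp5 had 215, 399, 171 and 320 normalized counts on 2D collagen (replicates 1 to 4) and 160, 123, 64.4 and 91.5 on 3D collagen. The groups did not overlap, with 2D replicate 3 the lowest of its group and 3D replicate 1 the highest of the other. The log2 fold change was −1.33 (SE 0.36, 95% interval −2.14 to −0.52), and the limma adjusted p of 0.0630 did not pass. It was 0.00585 with DESeq2, and from 0.0616 to 0.181 when single libraries were left out. An antisense gene model, AC137853.2, overlaps 22.1% of the exonic bases of Dusp5, and the strand setting of the counting is not given in the sources used here. The gene for SRF passed the test as lower on 3D collagen, and a link to Dusp5 was not tested. Normalized counts of Srf averaged 3792 ± 1135 on 2D and 1026 ± 163 on 3D (SD, n = 4), and the log2 fold change was −1.86, with a limma adjusted p of 0.00311.

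Dusp1 and Dusp2 encode the other nuclear members, of which DUSP1 acts mainly on p38 and JNK and is a fast stress-response gene. Dusp1 (chromosome 17, 26505590 to 26562128) had 1627, 1701, 1362 and 909 normalized counts on 2D collagen and 1476, 1159, 829 and 591 on 3D collagen. The groups overlapped, and replicate 4 was the lowest of both. Its log2 fold change was −0.51 (95% interval −1.19 to 0.18, limma adjusted p = 0.345). Dusp2 (chromosome 2, 127336159 to 127338376) ranged from 265 to 705 on 2D and from 260 to 361 on 3D collagen. Its groups overlapped through 2D replicate 4 alone, and without that library the limma adjusted p was 0.0580, against 0.256 with it. For both genes the interval includes 0 and also a decrease of more than 2-fold.

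Dusp6, on chromosome 10 (99263231 to 99267489), encodes the classic cytoplasmic feedback phosphatase of ERK. Its normalized counts were 211, 352, 222 and 253 on 2D collagen and 1373, 1248, 662 and 301 on 3D collagen. In 3D replicates 1, 2 and 3 the level exceeded every 2D value, while 3D replicate 4 lay below 2D replicate 2. The 4.56-fold spread between the highest and lowest 3D library was the widest of the 10 genes within a group. The log2 fold change was 1.58 (SE 0.45, 95% interval 0.58 to 2.59), and the limma adjusted p of 0.0708 did not pass. Without 3D replicate 4 the log2 fold change was 2.03 and the limma adjusted p 0.0132, and without both libraries numbered 4, an alternative chosen after seeing the data, 2.03 and 0.0192.

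Dusp7 (chromosome 9, 106368632 to 106375724) encodes a close relative of DUSP6. It had 180, 196, 245 and 267 normalized counts on 2D collagen and 575, 559, 445 and 391 on 3D collagen. The groups did not overlap, and within each the highest library was at most 1.48 times the lowest, the smallest such limit among the 10 genes. On 3D collagen alone Dusp2 and Dusp16 varied less. Dusp7 rose 2.21-fold, or by 1.15 on the log2 scale (SE 0.21, 95% interval 0.67 to 1.62), with a limma adjusted p of 0.0184. The call was lost without 3D replicate 1, 2 or 3, at limma adjusted p of 0.0661, 0.0716 and 0.0661, with log2 fold changes from 1.07 to 1.19.

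The promoters of Dusp6 (chr10:99262981-99263230, plus strand, GRCm38.p6) and Dusp7 (chr9:106368382-106368631, plus strand) are shown as those of the 2 ERK-selective genes with the higher 3D means. Each covers 250 bases before the RefSeq start, and nothing is in capitals because none of the marked motifs was matched.
Dusp6: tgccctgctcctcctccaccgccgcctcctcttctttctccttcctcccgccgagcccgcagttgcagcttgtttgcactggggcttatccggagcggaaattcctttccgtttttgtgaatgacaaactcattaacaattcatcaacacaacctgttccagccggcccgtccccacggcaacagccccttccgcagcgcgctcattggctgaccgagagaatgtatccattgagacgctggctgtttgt
Dusp7: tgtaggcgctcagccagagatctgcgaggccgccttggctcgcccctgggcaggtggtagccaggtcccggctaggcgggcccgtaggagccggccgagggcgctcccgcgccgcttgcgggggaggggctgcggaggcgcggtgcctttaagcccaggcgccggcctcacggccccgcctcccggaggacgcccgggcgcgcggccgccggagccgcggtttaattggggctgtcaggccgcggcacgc
The marked motifs were the cAMP response element (CRE) TGACGTCA, its half-site TGACG, the AP-1 site TGANTCA, the ETS site CCGGAA and the CArG box, on both strands. A CRE contains 2 half-sites. Of all promoters 1.55% held a CRE, 17.8% a half-site, 6.75% an AP-1 site and 12.0% an ETS site. The G and C content was 56.4% for Dusp6 and 77.2% for Dusp7. The GGGCGG box, held by 32.7% of promoters, and the E-box CACGTG, held by 6.02%, were searched too and occurred in neither.

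Dusp9 (chromosome X, 73639419 to 73643514) is the third cytoplasmic gene, known for its role in the placenta. Its normalized counts were 291, 577, 265 and 653 on 2D collagen and 224, 327, 216 and 519 on 3D collagen. The groups overlapped, and replicates 2 and 4 were the higher ones on both substrates. The log2 fold change was −0.46 (95% interval −1.32 to 0.41, limma adjusted p = 0.507).

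Dusp10 and Dusp16 encode phosphatases of JNK and p38. Dusp10 (chromosome 1, 184013302 to 184075636) had 48.7, 45.4, 42.7 and 79.7 normalized counts on 2D collagen, the lowest of the 10 genes there, and 168, 98.7, 87.7 and 129 on 3D collagen. The groups did not overlap, though 2D replicate 4 came close to 3D replicate 3. The log2 fold change was 1.14 (SE 0.31, 95% interval 0.44 to 1.84, limma adjusted p = 0.0635). It was 1.34, with a limma adjusted p of 0.0459, without 2D replicate 4. Dusp16 (chromosome 6, 134715468 to 134792625) had 651, 480, 491 and 406 on 2D collagen and 853, 926, 831 and 647 on 3D collagen. Only 2D replicate 1 and 3D replicate 4 overlapped. Its log2 fold change was 0.69 (SE 0.19, 95% interval 0.27 to 1.12, limma adjusted p = 0.0646), and without 2D replicate 1 it was 0.82, with a limma adjusted p of 0.0419.

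Dusp8 (chromosome 7, 142079490 to 142095843), the third JNK and p38 phosphatase, had 317, 432, 355 and 260 normalized counts on 2D collagen and 413, 340, 284 and 163 on 3D collagen. The groups overlapped, though 3D replicate 4 lay below every 2D library and 2D replicate 2 above every 3D library. The log2 fold change was −0.24 (95% interval −0.91 to 0.44, limma adjusted p = 0.671). Without 3D replicate 4 it was 0.03. Across the 8 libraries the pattern of Dusp8 was closest to that of Dusp1. The root-mean-square difference between their log2 values, each centred on its own mean, was 0.22, the smallest of all pairs of members. The pair of Dusp1 and Dusp2 followed at 0.27 and that of Dusp4 and Dusp6 at 0.28, while Dusp4 and Dusp5 were farthest apart at 1.55. These distances rest on the same 8 libraries and are a description.

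Of the 8 members with a promoter sequence, Dusp1 and Dusp8 held a full CRE in the 250 bases before the start, and their promoters are shown for that reason. The CRE binds CREB and related factors. These promoters lie at chr17:26508473-26508722 and chr7:142095285-142095534, both on the minus strand of GRCm38.p6, and capitals mark CREs and half-sites. Both lie inside the gene spans given above, as the starts are those of RefSeq and the spans those of GENCODE.
Dusp1: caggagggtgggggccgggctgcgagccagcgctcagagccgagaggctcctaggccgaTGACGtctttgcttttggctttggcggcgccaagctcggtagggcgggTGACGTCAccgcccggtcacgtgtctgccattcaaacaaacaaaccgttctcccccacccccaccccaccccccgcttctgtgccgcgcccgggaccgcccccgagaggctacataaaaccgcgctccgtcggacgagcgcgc
Dusp8: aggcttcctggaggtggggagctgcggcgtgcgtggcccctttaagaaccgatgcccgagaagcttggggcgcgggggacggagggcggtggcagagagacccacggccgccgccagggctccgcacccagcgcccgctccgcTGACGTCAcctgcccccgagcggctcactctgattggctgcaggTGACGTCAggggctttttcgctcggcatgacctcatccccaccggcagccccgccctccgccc
The CRE of Dusp1 lay 143 to 136 bases before the start, with a further half-site 191 to 187 bases before it. Dusp8 held 2 CREs, at 107 to 100 and 63 to 56 bases. Dusp5 and Dusp16 held a half-site each, at 55 to 51 and 70 to 66 bases. The E-box occurred in Dusp1 and Dusp2, and the GGGCGG box in Dusp1, Dusp2, Dusp5, Dusp8, Dusp10 and Dusp16. None of the 8 promoters held an AP-1 or ETS site as spelled here.

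Per kilobase of exon, Dusp1 was the most abundant of the 10 on 2D collagen, at 423 ± 108 normalized counts per kb (mean ± SD, n = 4). Dusp2 followed at 251 ± 90.4, then Dusp9, Dusp4, Dusp5, Dusp6, Dusp8, Dusp7 and Dusp16 from 164 to 65.0, and Dusp10 was last at 17.8 ± 5.66. The ranges of neighbours in this order overlapped except between Dusp16 and Dusp10. On 3D collagen Dusp4 came first at 448 ± 219, before Dusp1 at 306 ± 117, Dusp6 at 286 ± 161 and Dusp2 at 159 ± 24.3. Dusp7, Dusp9, Dusp16, Dusp8, Dusp5 and Dusp10 followed from 147 to 39.7. All neighbours overlapped there, Dusp5 having moved from the fifth to the ninth place. Both orders depended on the length used. With that of the longest transcript, mean shares of the summed 3D level were 21.8% for Dusp1, 21.7% for Dusp4, 2.31% for Dusp10 and 2.24% for Dusp5. With the exonic length used here they were 17.7, 25.1, 2.46 and 2.60%.

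**Figure D3:**
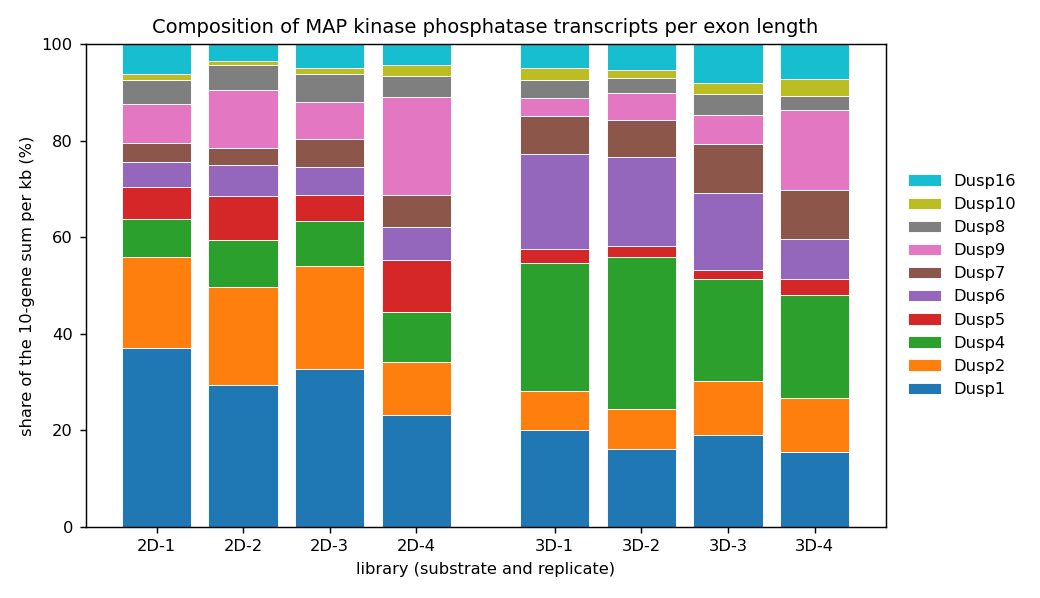
Share of each gene in the sum of the 10 per-kb levels (percent, vertical axis) in each library. In all 3D libraries the segments of Dusp4 and Dusp6 are larger, and those of Dusp1 and Dusp5 smaller, than in any 2D library.

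The summed level of the 10 genes was 1379 ± 250 per kb on 2D and 1714 ± 557 on 3D collagen, and the ranges overlapped (1190 to 1745 and 1154 to 2217). Within that sum Dusp1 made up 23.1 to 37.0% on 2D and 15.5 to 20.1% on 3D collagen. The share of Dusp4 was 7.90 to 10.2% on 2D and 21.0 to 31.5% on 3D collagen. That of Dusp6 was 5.08 to 6.78% and 8.33 to 19.8%, that of Dusp7 3.35 to 6.69% and 7.68 to 10.1%, and that of Dusp5 5.51 to 10.9% and 1.97 to 3.21%. That of Dusp8 was 4.49 to 5.81% and 2.90 to 4.43%. These 6 shares did not overlap between the substrates, though the normalized counts of Dusp1, Dusp6 and Dusp8 did. Shares are bound to each other, since a larger share of 1 gene lowers the rest, and no test was made of them. The 3 cytoplasmic ERK-selective genes together made up 17.2, 21.9, 19.2 and 33.6% in 2D replicates 1 to 4 and 31.2 to 34.9% on 3D collagen, so that 2D replicate 4 alone reached the 3D range. The 4 nuclear genes made up 55.3 to 70.4% on 2D, again with replicate 4 apart at the low end, and 51.3 to 58.2% on 3D collagen. The 3 genes for JNK and p38 phosphatases made up 9.47 to 12.4% and 10.2 to 14.7%. In each class the substrates overlapped.

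For Dusp4 the 3 genes with the most similar pattern over the 8 libraries, among 10828 compared, were the chemokine gene Cxcl3, Ceacam19 and the AMP deaminase gene Ampd3. Their root-mean-square differences (log2) were 0.24, 0.25 and 0.29. For Dusp7 they were the scramblase gene Plscr1, the kinase gene Dyrk3 and the homeobox gene Irx3, at 0.14, 0.14 and 0.16. Cxcl3 itself did not pass the test (limma adjusted p = 0.0710), and the other 5 did. Like Dusp4, Cxcl3, Ceacam19 and Ampd3 were highest in 3D replicate 2, and like Dusp7, Plscr1, Dyrk3 and Irx3 were highest in 3D replicate 1. These genes were picked for their likeness to a called member over the same libraries. Their calls and shared highest library follow largely from that choice and are a description. Ceacam19 had only 10 to 94 reads in a library.

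Among the MAP kinase genes, none of 13 tested passed in limma or edgeR (median log2 fold change −0.19), and 1 was lower in DESeq2. At an unadjusted limma p under 0.05, 0 passed as higher and 3 as lower. The ERK gene Mapk3, with the highest mean normalized count of them (not per kb), had a log2 ratio of −0.17 (95% interval −0.69 to 0.35). Of 7 MAP kinase kinases 1 rose, Map2k6, which activates p38, from 80.9 to 108 normalized counts on 2D to 166 to 212 on 3D collagen. Its log2 fold change was 1.08, and the limma adjusted p of 0.0238 became 0.0557 to 0.0995 when any single 3D library was left out. Of 13 scaffold and effector kinase genes Ksr1, the scaffold of the ERK cascade, fell. Its mean was 767 ± 226 normalized counts on 2D and 252 ± 58.3 on 3D collagen, with a log2 ratio of −1.58 and a limma adjusted p of 0.0134.

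Transcripts known to depend on ERK did not share 1 direction. Of 15 tested, 10 had log2 fold changes above 0 and 5 below, with a median of 0.58, from −1.89 for Epha2 to 1.16 for Etv5 (limma adjusted p = 0.248). The 2 that passed, the Eph receptor genes Epha2 and Epha4, were both lower. DESeq2 called 2 of the list higher and 2 lower, edgeR 0 and 2, and an unadjusted limma p under 0.05 was reached by 2 in each direction. Epha2 was at 1743 to 3193 normalized counts on 2D and at 539 to 780 on 3D collagen (limma adjusted p = 0.00318). For Epha4 the log2 ratio was −1.44 and the limma adjusted p 0.0242. The adjusted p became 0.0641 with library size scaling, 0.0569 and 0.0505 without 2D replicates 3 and 4 and 0.0762, 0.0809 and 0.0862 without 3D replicates 1, 2 and 3. Of 15 immediate early genes, the first to respond to growth factors, Srf and Myc were lower in limma and none higher, and the median was 0.39. DESeq2 called 1 higher and 2 lower, edgeR 0 and 2, and at an unadjusted limma p under 0.05 there were 2 higher and 3 lower. For Myc the log2 ratio was −1.09. Its limma adjusted p of 0.0192 became 0.0622 and 0.0768 without 3D replicates 1 and 3, and 0.0624 without both libraries numbered 4. These lists share Egr1, Fosl1 and Ier3.

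**Figure D4:**
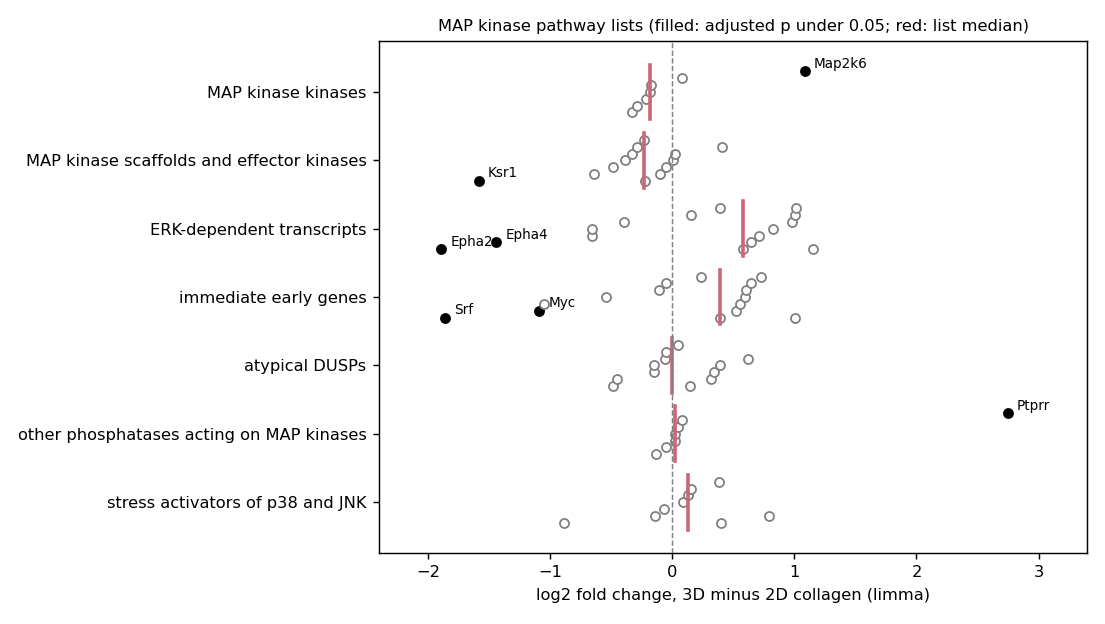
Log2 fold change (3D minus 2D collagen, limma) of each tested gene in 7 lists of the MAP kinase pathway, with filled points at an adjusted p under 0.05 and a red bar at each list's median. The filled points are Map2k6 and Ptprr to the right of 0 and Ksr1, Epha2, Epha4, Srf and Myc to the left, and the medians lie between −0.23 and 0.58.

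Among other phosphatases of MAP kinases, 1 of 7 rose. It was Ptprr, a tyrosine phosphatase that binds ERK and p38, with 111 to 230 normalized counts on 2D and 829 to 1096 on 3D collagen. The log2 ratio was 2.75 (SE 0.25), with a limma adjusted p of 0.00130. That estimate is above those of all 10 MKPs, a difference that was not tested. None of 12 atypical DUSPs, most of which lack the kinase-docking domain, passed in limma, edgeR or DESeq2 (median −0.00). An unadjusted limma p under 0.05 was reached by 0 as higher and 1 as lower. Dusp3 and Dusp11, with the highest mean normalized counts of these (not per kb), had log2 fold changes of −0.06 and −0.15. None of 9 activators of p38 and JNK passed in limma or edgeR (median 0.13), and 1 was lower in DESeq2. At an unadjusted limma p under 0.05, 2 passed as higher and 1 as lower. Traf2 and Tab2, with the highest mean normalized counts of them (not per kb), had log2 fold changes of 0.15 and 0.13.

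**Figure D5:**
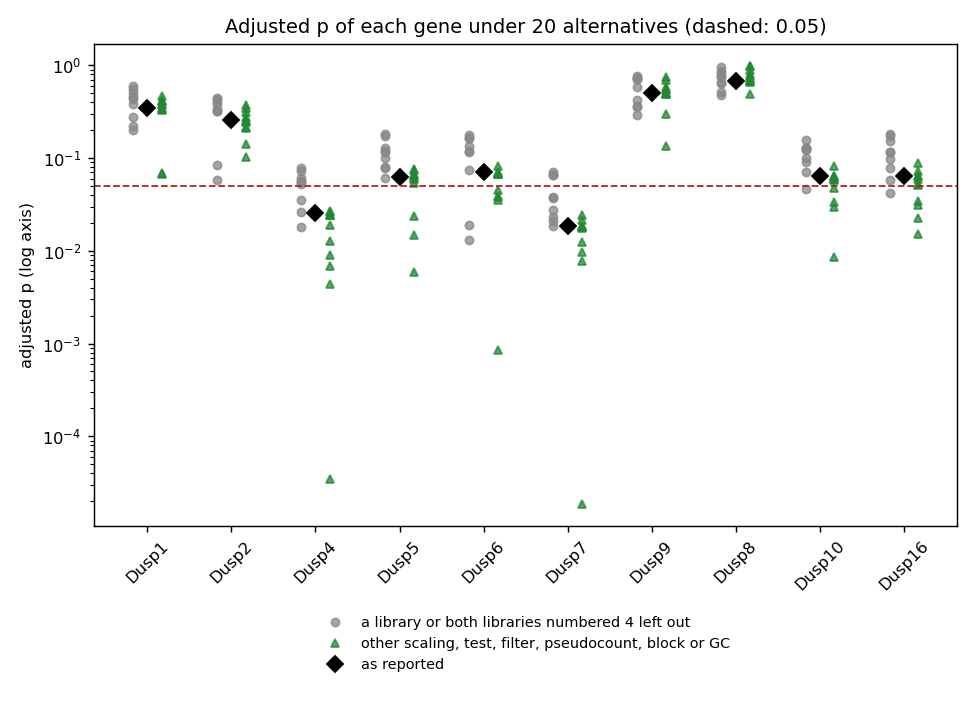
Adjusted p (log axis) of each gene as reported and under 20 alternatives, split into those that leave out libraries and all others, with a dashed line at 0.05. Dusp4 and Dusp7 lie under the line in 14 and 17 of the 20, Dusp6 in 7, Dusp10 and Dusp16 in 5 each and Dusp5 in 3, and the other 4 genes in none.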

How the data were processed

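RNA of 8 MOE libraries, 4 per substrate, was sequenced. HTSeq 0.6.1p1, DESeq2 and the mm10 build are named per the submitters' processing notes. The sources used here do not give the aligner, the annotation or the strand setting. What the authors deposited is a signal per gene, each library's reads over its own size factor, and it is called the normalized count here. In every library 100% of the values were whole multiples of the worth of 1 read (tolerance 0.001 reads), so reads were recovered.

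The main test was limma 3.58.1 (in R 4.3.3), applied to the log2 of each normalized count plus 1 and using a robust trend of the variance. It covered the 11820 genes that reached 10 in 4 or more libraries, with Benjamini-Hochberg adjustment over all of them (threshold 0.05). The added 1 shrinks the fold change of low genes. edgeR 4.0.16, which called 308 genes higher and 369 lower, and DESeq2 1.42.0 were run on the recovered reads. The other alternatives were scaling, pseudocount, filter, replicate block, GC trend (lowess, 11711 genes) and leaving out libraries.

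The members and the pathway lists were chosen with earlier results of these data known. The results of some pathway genes and of 1 list are not reported here. Named genes were all members, up to 3 genes past the threshold per list and the 3 most alike per called member. Where none of a list passed, they were taken from the 2 with the highest mean normalized counts. Gene positions, exon lengths and overlaps came from GENCODE M21 (GRCm38, mm10), and promoters from RefSeq (8 of 10 members matched). Marker lists of 7 cell types and tissues were summed in CPM. The epithelial list ranged over all libraries from 8009 to 11298 CPM, the oviductal from 601 to 773, the endothelial from 14.2 to 38.9, the leukocyte from 20.8 to 39.9, the intestinal from 1.16 to 6.87 and the liver list from 0.434 to 25.3.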

Additional observations from a re-analysis of the deposited data

Results flagged for a closer look

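In 5 of 48 groups of 4 libraries examined (10 members and the named pathway genes), 1 library stood apart from the other 3 by more than Dixon's 95% critical value (its gap to the nearest, over the group's range). Chance alone gives about 1 in 20. One member was among them: Dusp10 in 2D replicate 4, at 79.7 normalized counts. The others were Map2k6 in 3D replicate 1, the lowest of its group at 166, Epha2 in 3D replicate 2, the highest at 780, Srf in 2D replicate 2, the highest at 5494, and Myc in 3D replicate 2, the highest at 448.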

How the results depend on the processing

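Over 20 alternatives 9 of the 10 members kept their direction, the exception being Dusp8 without 3D replicate 4 (log2 fold change 0.027, and −0.42 to 0.027 over single libraries left out). Of these 200 comparisons 170 kept direction and call, 20 newly passed and 9 no longer passed. The members called higher numbered 2, and 5 with library size scaling, DESeq2, the replicate block, or the GC trend removed with the replicate block. Leaving out single libraries gave 0 to 3. The members called lower numbered 0, and 1 with DESeq2, the replicate block, or both GC removal and block. Over all genes, higher and lower calls (275 and 401) were 708 and 871 with DESeq2, 482 and 605 with the GC trend removed, 663 and 742 with the replicate block, and 999 and 1079 with both. Higher calls were 498 with library size and 171 without both libraries numbered 4. Single libraries left out gave 44 to 267 and 104 to 370. Why the counts moved was not tested.

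Whether the replicate numbers pair the samples could not be told, and no label says so. Same-numbered libraries had deviation correlations of −0.168, 0.369, 0.246 and 0.808. The closest 3D library was replicate 4 for 2D replicate 1 (0.162) and replicate 1 for 2D replicate 2 (0.446). For 2D replicates 3 and 4 it was the one of the same number. With the block, Dusp4, Dusp6, Dusp7, Dusp10 and Dusp16 passed as higher and Dusp5 as lower, with limma adjusted p of 0.0236 for Dusp5, 0.0447 for Dusp6, 0.0334 for Dusp10 and 0.0313 for Dusp16. Among uncalled named genes the sign changed for Mapk3 (0.0057 with library size, 0.051 with the GC trend removed, with or without block, 0.016 without 2D replicate 2, the highest of −0.31 to 0.016), for Dusp3 (0.11 with library size, 0.030, 0.019 and 0.11 without 2D replicate 1, 2D replicate 3 and 3D replicate 4, within −0.20 to 0.11), for Dusp11 (0.021 with library size) and for Tab2 (−0.058 without 2D replicate 2, within −0.058 to 0.29). The lowest member count in a library, 38 reads, limits Dusp10.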

Other observations

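The libraries numbered 4 resembled each other across substrates in several members. In both groups replicate 4 was the lowest library for Dusp1, Dusp2, Dusp8 and Dusp16 and the highest for Dusp9. Over all tested genes the deviations of these 2 libraries from their group means had a correlation of 0.808. This is across genes, which are not independent replicates, and its source was not tested.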
